A study of Mus musculus with 3 samples.

Results

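The cells described here are Car4-positive capillary endothelial cells of the mouse lung, 1137 of the 19899 barcodes kept from 3 single-cell RNA libraries. A barcode was kept with at least 1000 unique molecular identifiers (UMIs, each marking 1 captured RNA molecule), at least 200 detected genes and under 25% of its UMIs on mitochondrial genes. It passed the capillary gate with at least 4 UMIs in all on the endothelial genes Cldn5, Cdh5, Cd93 and Calcrl, no UMI of the mesenchymal genes Pdgfrb and Col1a2, and under 5% of its UMIs on the surfactant gene Sftpc. Members of the set had at least 2 UMIs of Car4. The 3925 comparison cells passed the same gate with no Car4 UMI and at least 2 UMIs of Gpihbp1, a marker of general capillary cells. The cells were thus chosen by their measured counts of these genes, so every difference between members and comparison cells is given as a description.

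The lungs came from MMTV-HER2/Neu mice on the FvB background, in which a mouse mammary tumour virus promoter drives the Neu (HER2) oncogene in mammary epithelium. Each of the 3 groups was 1 library of sorted CD45-negative cells, a sort that removes leukocytes. The early HER2-negative library (labelled non-cancer lung cells) and the early HER2-positive library (labelled breast cancer cells) came from mice of 14 to 18 weeks with no palpable tumour. The late HER2-positive library, also labelled breast cancer cells, came from mice older than 20 weeks with primary tumours. All mice were of the transgenic line, and how many were pooled in a library is not given in the sources used here. In every sentence below, 3 values in a row follow the order in which the libraries are named here, early HER2-negative first and late HER2-positive last.

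Lung alveoli are wrapped in a capillary net built from aerocytes and general capillary cells. Aerocytes are large, thin cells specialised for gas exchange, marked in the mouse by Car4, a carbonic anhydrase on the cell surface that speeds the interconversion of carbon dioxide and bicarbonate. General capillary cells carry Gpihbp1, the anchor of lipoprotein lipase, take part in the control of vascular tone and act as progenitors in repair. Aerocytes depend on VEGF from the alveolar epithelium through the receptor Kdr, and make the peptide apelin (Apln), whose receptor Aplnr is on general capillary cells.

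Car4 lies at chr11:84957786-84966044 on the plus strand, and the aerocyte genes Ednrb and Apln lie at chr14:103814625-103844402 and chrX:48025146-48034853 on the minus strand (GRCm38, GENCODE annotation). The 250 bases before the start of each gene's RefSeq transcript are shown because the genes were high in the same cells. That start differs from the GENCODE gene boundary for Car4 and Ednrb, and the Ednrb window lies inside the GENCODE span. The windows are RefSeq sequence of GRCm38.p6 at chr11:84957504-84957753, chr14:103843702-103843951 and chrX:48034854-48035103, written 5′ to 3′ on the gene's strand. Capitals mark a match, on either strand, to the letters AGGAAG, searched as a form of the ETS-factor site. ETS factors are general regulators of endothelial genes.
Car4: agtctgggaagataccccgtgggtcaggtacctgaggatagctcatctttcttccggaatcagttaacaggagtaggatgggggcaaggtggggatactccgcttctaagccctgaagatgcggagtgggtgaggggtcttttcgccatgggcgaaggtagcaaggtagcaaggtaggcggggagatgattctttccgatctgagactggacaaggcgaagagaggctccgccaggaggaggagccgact
Ednrb: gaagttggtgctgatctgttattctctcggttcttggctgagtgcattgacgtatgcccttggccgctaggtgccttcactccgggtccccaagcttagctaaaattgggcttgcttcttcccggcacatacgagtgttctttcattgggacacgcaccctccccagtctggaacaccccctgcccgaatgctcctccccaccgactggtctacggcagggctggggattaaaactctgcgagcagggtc
Apln: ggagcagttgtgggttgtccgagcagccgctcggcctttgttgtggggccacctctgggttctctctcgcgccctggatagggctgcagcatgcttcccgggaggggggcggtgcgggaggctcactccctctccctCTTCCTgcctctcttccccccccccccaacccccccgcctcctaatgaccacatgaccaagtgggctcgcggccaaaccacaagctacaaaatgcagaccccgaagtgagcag
The Apln window held 1 match to AGGAAG, and the Car4 and Ednrb windows held none. Other forms of ETS sites were not searched, so a window without a match may still hold such a site. Of the aerocyte list, 13 genes had 14 windows, of which 5 held the ETS letters, against 29.5% of all 32851 windows of this length and 7 of 14 windows of general capillary genes. A T-box core (GGTGTG), searched on both strands because the T-box factor Tbx2 marks aerocytes, was in 0 of the 14 aerocyte windows, 2 of 14 general capillary windows and 16.3% of all windows. A match is a run of letters and not a measured binding site.

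Of 6270, 7622 and 6007 kept barcodes, 5073, 1412 and 449 passed the capillary gate, also in the libraries labelled as cancer cells. Members numbered 776, 291 and 70 and comparison cells 3052, 666 and 207. The members held 3285543, 1540362 and 579884 UMIs in all, so they were measured least precisely in the late library. Their median depth was 3888, 4604 and 6695 UMIs, against 2961, 3458 and 4682 in the comparison cells. Levels below are CPM, a gene's summed counts in a cell set scaled to a fixed total (counts per 1000000 UMIs), and intervals are at the 95% level and cover counting error only. With 1 library a group there was no replicate check, and sort, stage, age and animal cannot be told apart from library. Between libraries, 10 to 18 kept barcodes were shared, where independent draws from the barcode list would share 5.54 to 7.03, and 1 of them was a member in both libraries of a pair.

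The set was a mixture when read by its own Car4 counts. Gated cells were many at 1 UMI (744, 197 and 58) and 2 UMIs (236, 66 and 19), fewer at 5 UMIs (26, 14 and 2), and then spread in a long tail up to 57, 37 and 39 UMIs. The 383, 157 and 37 cells with at least 6 Car4 UMIs are called high-Car4 cells here, and the 393, 134 and 33 members with 2 to 5 UMIs low-Car4 cells. High-Car4 cells were 49.4% (45.8 to 52.9), 54.0% (48.0 to 59.8) and 52.9% (40.6 to 64.9) of the members. The division at 6 was chosen after the counts were seen, and it marks a range and not a type, with 26, 14 and 2 cells at 5 UMIs and 22, 13 and 1 at 6. It is a cut on raw counts, so in deeper libraries it admits cells with a lower share of Car4 among their UMIs.

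**Figure D1:**
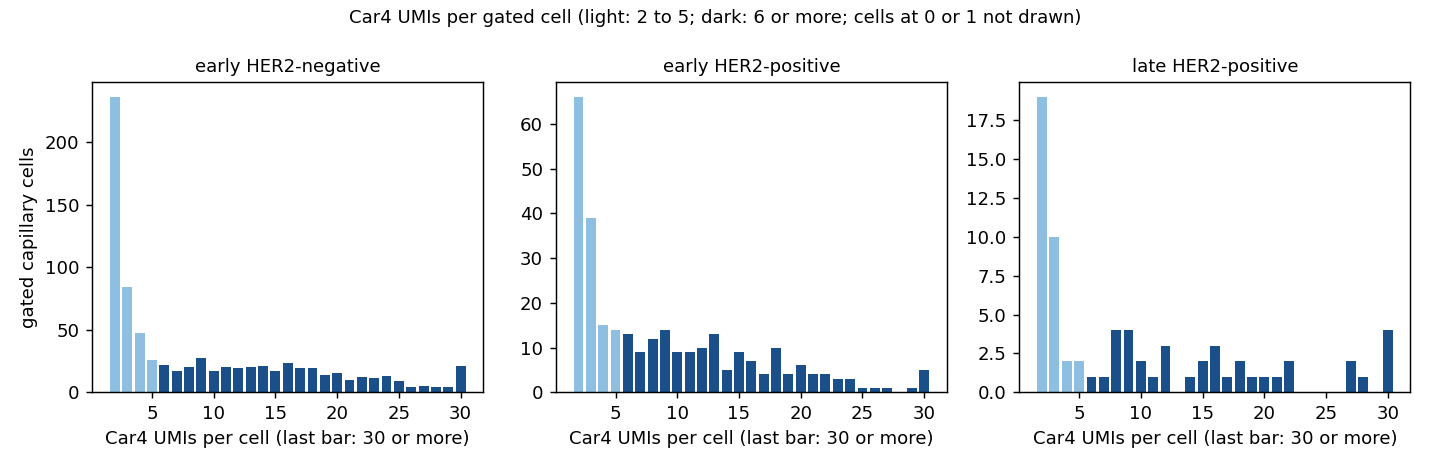
Number of gated cells (y axis) by Car4 UMIs per cell from 2 upward (x axis, last bar 30 or more) in each library, light bars for low-Car4 and dark bars for high-Car4 cells. The low-Car4 members (2 to 5 UMIs) number 393, 134 and 33, and the high-Car4 members (6 UMIs or more), 383, 157 and 37 cells, form the long tail.

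Aerocyte genes outside the gate were concentrated in the high-Car4 cells. The 6 genes summed were Ednrb (endothelin receptor B), Fibin (a secreted protein), Tbx2 (a transcription factor), Apln, Chst1 (a carbohydrate sulfotransferase) and Cdkn2b (an inhibitor of cyclin-dependent kinases). The sum was 3278, 2589 and 1984 CPM in high-Car4 cells and 392, 533 and 151 CPM in low-Car4 cells. In gated cells with no Car4 UMI it was 38.7, 96 and 95.2 CPM, so the low-Car4 values lay between those of the other sets. In the late library this was not resolved, with overlapping intervals of 105 to 212 CPM in low-Car4 cells and 81.3 to 111 CPM at no Car4 UMI. Just outside the Car4 minimum, cells with 1 UMI had 84.4, 167 and 116 CPM of the 6 genes, and just inside it cells with 2 UMIs had 190.0, 173 and 156 CPM. At 4 to 5 UMIs the sum was 1056, 1387 and 56.3 CPM, the last of these over 4 cells.

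Counted per cell, at least 2 UMIs of the 6 genes were found in 375, 155 and 36 high-Car4 cells, and in 80, 49 and 7 low-Car4 cells. The high-Car4 cells were deeper, with medians of 4546, 5500 and 8283 UMIs against 3161, 3962 and 6258. After every cell was thinned to 1000 UMIs, at least 1 UMI of the 6 genes was found in 92.4, 90.4 and 64.9 percent of high-Car4 cells and 19.8, 33.6 and 12.1 percent of low-Car4 cells. Unthinned, these shares were 98.2, 98.7 and 97.3 percent and 33.3, 53 and 36.4 percent. Nearly all high-Car4 cells thus had at least 2 UMIs of the 6 genes together, and most low-Car4 cells had fewer. Single genes were found in fewer high-Car4 cells, from Fibin in 56.9%, 52.9% and 64.9% to Ednrb in 96.1%, 95.5% and 94.6%. The 6 genes are also among those with the highest ratios of members over comparison cells in these data. The counts therefore describe the cells and do not test the label of aerocyte.

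Ednrb alone shows the same mixture. It had a UMI in 96.1%, 95.5% and 94.6% of high-Car4 cells, 16.3%, 32.1% and 21.2% of low-Car4 cells and 1.83%, 5.41% and 10.1% of comparison cells. Kept cells with no UMI of the 4 endothelial gate genes had one in 3.45%, 2.8% and 1.27%, at median depths of 4538, 5836 and 8197 UMIs. Not all of the 6 genes were rare in those cells: Tbx2 had a UMI in 70.3%, 25.6% and 18.1% of them, against 3.21%, 9.46% and 6.76% of comparison cells, and Fibin in 38.2%, 5.1% and 2.12%, against 0.393%, 0.901% and 0.483%. The median Ednrb count per cell was 6, 5 and 7 UMIs in high-Car4 cells and 0, 0 and 0 in low-Car4 cells. Free RNA, read from barcodes of 1 to 100 UMIs, held Car4 at 326, 78 and 24.6 CPM, and 1.61%, 0.747% and 0.647% of the cells with no endothelial gate UMI had a Car4 UMI. Its part in the low-Car4 cells was not tested.

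Gpihbp1 was the mirror image of these genes, and its level in high-Car4 cells differed between libraries. It was at 399, 651 and 841 CPM in high-Car4 cells and 2085, 1285 and 1662 CPM in low-Car4 cells. At least 1 UMI was found in 39.2% (34.2 to 44.3), 59.2% (51.1 to 67) and 81.1% (64.8 to 92) of high-Car4 cells. Thinned to 1000 UMIs, the shares were 18% (14.3 to 22.2), 31.8% (24.6 to 39.7) and 37.8% (22.5 to 55.2), lowest in the early HER2-negative library and with overlapping intervals in the HER2-positive libraries. Cells with no endothelial gate UMI held it in 3.57%, 1.12% and 0.49%. Plvap, which forms the diaphragms of endothelial vesicles, had the same order, at 369, 766 and 1089 CPM in high-Car4 cells against 3470.3, 2606 and 2665 CPM in comparison cells. Median counts per high-Car4 cell were 0, 0 and 3 UMIs of Plvap and 0, 1 and 4 of the receptor phosphatase gene Ptprb, against 10, 9 and 12 and 9, 10 and 13 per comparison cell.

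Car4-positive cells made up 20.3% (19.0 to 21.6), 30.4% (27.5 to 33.4) and 25.3% (20.3 to 30.8) of members plus comparison cells (Clopper-Pearson intervals). The early HER2-positive library had the highest share. Thinned to 1000 UMIs before the gate on Car4 and Gpihbp1, the shares were 13.4% (12.1 to 14.7), 21.7% (18.5 to 25.2) and 11.4% (7.03 to 17.3), so the early HER2-positive share was still the highest and the late share was then the lowest. High-Car4 cells alone gave 11.1%, 19.1% and 15.2%. The sort sets which cells could be counted, so the shares do not describe the whole lung. Cells with the highest doublet scores were kept. They were 11.3%, 1.72% and 1.43% of the members and 3.28%, 1.35% and 1.93% of the comparison cells, and without them the early HER2-negative share was 18.9%.

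The aerocyte genes were higher in the Car4-positive cells of every library. All 15 genes of the aerocyte list were at least 1.5-fold above the comparison cells in each of the 3 libraries, with a median log2 ratio of 4.07. Over all 6321 genes measured, 3.86% were higher by that rule and 2.83% lower, and the median log2 ratio was 0.00. The gate used this contrast, so nothing is read from the counts. The list was also chosen with earlier results of these cells known.

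Kdr, the main VEGF receptor (chr5:75932827-75978458), was at 2090.4, 1836 and 1262 CPM in the members and 542, 499.9 and 344 CPM in the comparison cells. The ratios were 3.86 (3.72 to 4.0), 3.67 (3.43 to 3.93) and 3.67 (3.24 to 4.17), and each member level lay above all 3 comparison levels. Prx (chr7:27499324-27520214), which encodes the scaffold protein periaxin, was at 412, 411 and 336 CPM against 66.2, 73.4 and 46.7 CPM. Rprml (chr11:103649570-103650579), a relative of the cell cycle inhibitor reprimo, was at 468, 486 and 402 CPM against 141, 144 and 113 CPM. These 3 markers were all expressed in comparison cells too, and within the members they followed Car4: Kdr was at 3011, 2353 and 1705 CPM in high-Car4 cells and 866, 1006 and 561 CPM in low-Car4 cells.

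A second kind of aerocyte gene was close to absent from the comparison cells. Ednrb, which takes up and responds to endothelins, was at 874, 699.8 and 486 CPM against 8.19, 20 and 46.7 CPM. Its ratio differed by library, at 107 (85.4 to 135), 34.9 (26.3 to 47.3) and 10.4 (7.71 to 14.3): from the early HER2-negative to the late library the member level was lower and the comparison level higher. Apln was at 248, 207 and 205 CPM against 4.77, 12 and 9.15 CPM, and Fibin at 226, 185 and 148 CPM against 1.35, 2.81 and 0.915 CPM. Chst1 was at 166, 148 and 122 CPM against 1.97, 4.41 and 0 CPM. Its late comparison cells had no count, and against the limit of 3 counts (2.75 CPM) it was at least 44.6-fold higher there.

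Further members of the list covered regulators, ligands and surface proteins. Tbx2 was at 358, 394 and 216 CPM against 11.2, 27.3 and 12.8 CPM, and Cdkn2b at 167, 166 and 96.6 CPM against 5.18, 15.2 and 4.58 CPM. Kitl, the ligand of the receptor Kit, was 4.31, 3.6 and 3.33 times the comparison level, and Nrp1, a co-receptor for VEGF and semaphorins, 1.96, 2.03 and 1.66 times. Emp2, a membrane protein that is also abundant in alveolar type 1 cells, was at 2662, 3057 and 2075 CPM against 180.1, 631 and 365 CPM. Sirpa, the receptor for CD47, was at 81.6, 74 and 69 CPM against 1.35, 3.61 and 0.915 CPM, and the integrin subunit gene Itga3 at 211, 161 and 89.7 CPM against 52.3, 42.9 and 26.5 CPM.

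The naming rule took the 15 genes whose smallest ratio over the libraries was highest. Of these, 7 were aerocyte list genes: Car4, Fibin, Chst1, Apln, Tbx2, Cdkn2b and Ednrb. The others were Alpl, Ccdc184, Cdkn2a, Rspo3, AW112010, Meox1, Ptp4a3 and Clu. Alpl, the tissue alkaline phosphatase, was at 126, 111 and 75.9 CPM against 2.28, 3.21 and 3.66 CPM. Rspo3, an enhancer of Wnt signalling, was at 128, 93.5 and 105 CPM against 3.42, 8.02 and 3.66 CPM. Meox1, a homeobox factor, was 16.4, 7.08 and 8.93 times the comparison level, and Clu, the extracellular chaperone clusterin, 5.72, 5.84 and 6.24 times. Some of these ratios depended on the comparison gate. Against Car4-free cells whatever their Gpihbp1, the median log2 ratio over the libraries was 3.55 in place of 5.11 for Alpl, 4.33 in place of 5.92 for Sirpa and 4.34 in place of 5.13 for Ednrb.

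**Figure D2:**
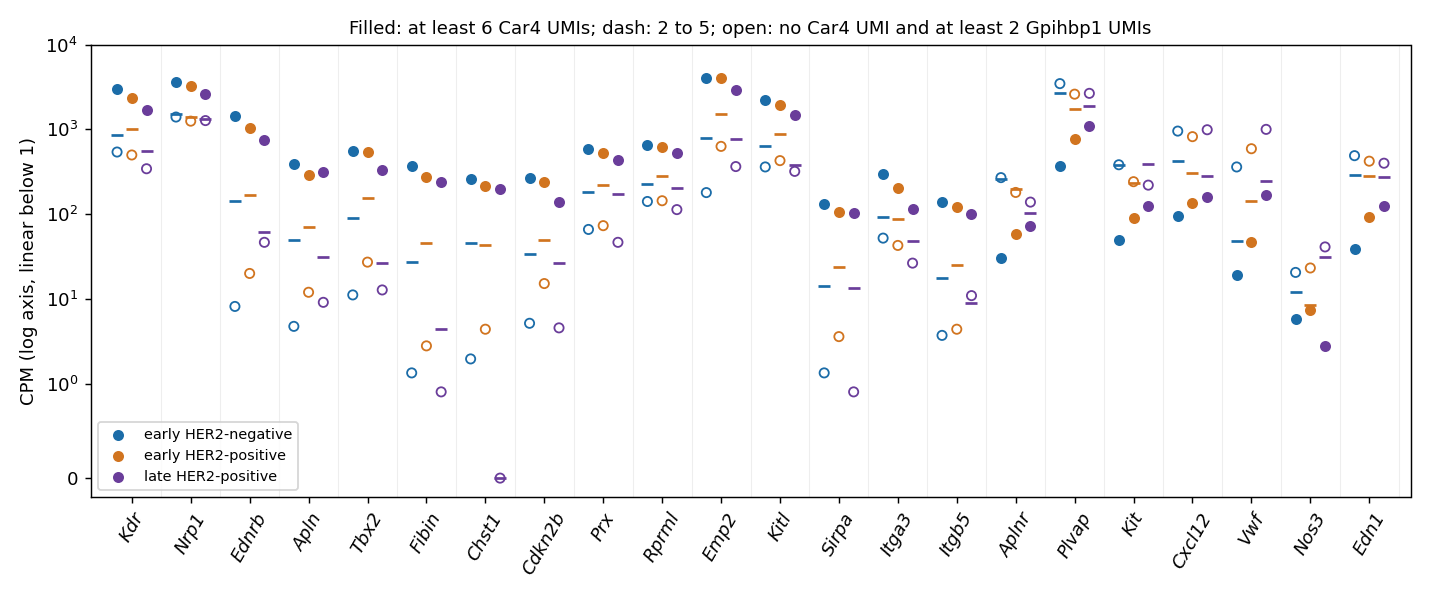
CPM (log axis, linear below 1) of named genes in high-Car4 cells (filled), low-Car4 cells (dashes) and comparison cells (open), coloured by library. For Ednrb the high-Car4 cells stand at 1423, 1031 and 754 CPM, the low-Car4 cells at 144, 169 and 62.4 CPM and the comparison cells at 8.19, 20 and 46.7 CPM, and for Plvap the order is the reverse.

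General capillary genes were lower in part. Of 13 measured, 6 were at least 1.5-fold lower in each library (Aplnr, Plvap, Lpl, Tek, Ptprb and Cxcl12), 0 were higher and 7 were neither, with a median log2 ratio of -0.74. Among all genes measured, 2.83% were lower and 3.86% higher. Aplnr, the apelin receptor, was at 128, 112 and 84.5 CPM against 270.3, 181 and 139 CPM. Tek, the angiopoietin receptor, was at 362, 354 and 405 CPM against 796, 634 and 654 CPM. Kit, the receptor for Kitl, was at 190.2, 145 and 226 CPM against 383, 242 and 221 CPM, so the levels in the late library were close. Scn7a, a sodium channel gene of the same list, leaned the other way, at 1057, 871 and 667 CPM against 730.4, 497 and 263 CPM.

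The split by Car4 count separated these genes further. In high-Car4 cells, 9 of the 13 were lower (with Gpihbp1, Kit and Adgrl3 added) and Scn7a was higher, where 5.49% of 6321 genes were lower and 5.85% higher. In low-Car4 cells, 1 of 14 was lower (Cxcl12) and 9 of 12 measured aerocyte genes were higher, where 0.653% of 6283 genes were lower and 0.493% higher. Car4 is among the 9 higher genes and Gpihbp1 among the 9 lower ones by the gate itself. Of 15 genes general to endothelium, 2 were higher (Emcn and Icam2) and 2 lower (Cd93 and Clec14a) in high-Car4 cells, and 0 were either in low-Car4 cells.

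Ligands and receptors divided between the cell populations. In the VEGF list of 8 measured genes, Kdr and Nrp1 were higher, and the ligand Vegfa and the co-receptor Nrp2 lower. Vegfa was at 144, 133 and 276 CPM against 423, 341 and 598 CPM. In the list of apelin, endothelin and nitric oxide genes, 2 of 10 were higher (Apln and Ednrb) and 2 lower (Aplnr and Edn1). Edn1, the endothelin ligand, was at 146, 165 and 183 CPM against 491, 423 and 399.9 CPM. The members thus held more of the apelin ligand and endothelin receptor RNA, and the comparison cells more of the apelin receptor and endothelin ligand RNA. Of 11 Notch genes, 3 were lower (the ligand Dll1, the target Hey1 and the feedback gene Nrarp) and 0 higher. Beside these 3 lists, 3.86% of all genes measured were higher and 2.83% lower.

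Cell cycle inhibitor genes were high in the members. Of 7 measured, 4 were higher (Cdkn1a, Cdkn2a, Cdkn2b and Rprml) and 1 lower (Cdkn1c), and Cdkn2b and Rprml are also on the aerocyte list. Among all genes measured, 3.86% were higher and 2.83% lower. Cdkn1a, a p53 target that encodes p21, was at 1124, 745 and 629 CPM against 473, 293 and 371 CPM. Cdkn2a, which encodes p16 and Arf, was at 138, 149 and 122 CPM against 3.0, 7.62 and 7.32 CPM. Only 2 of 16 cell cycle genes reached the level measured, and 0 of these were called.

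Among transcription factors, Tbx2, Tbx3 and Meox1 were higher and Foxo1 and Gata6 lower of 25 endothelial factors. For this and the lists that follow, the shares over all genes measured were 3.86% higher and 2.83% lower. Tbx3, a T-box repressor, was at 710.1, 569 and 528 CPM against 267, 215 and 195 CPM, and Gata6 at 10, 9.74 and 8.62 CPM against 36.8, 60.1 and 96.1 CPM. Of 12 genes of caveolae and force sensing, the ion channel gene Piezo2 was 2.5, 2.57 and 2.57 times and the focal adhesion gene Vcl 2.52, 2.28 and 1.87 times the comparison level, Plvap was lower and 9 were neither. Integrin genes divided, with Itga3 and Itgb5 higher and Itga5 and Itga6 lower of 8. Itgb5 was at 86.1, 85 and 65.5 CPM against 3.73, 4.41 and 11 CPM, and Itga6, a laminin receptor subunit, at 151, 134 and 222 CPM against 356, 296 and 428 CPM. Of 11 matrix and basement membrane genes 1 was higher and 3 were lower (Lama5, Sparcl1 and Fbln5). The higher one, Timp3, an inhibitor of matrix metalloproteinases, was 3.98, 3.03 and 1.57 times the comparison level.

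Of 9 haemostasis genes, 3 were lower (Vwf, Plat and Entpd1), where 2.83% of all genes measured were. Plat, which encodes the tissue plasminogen activator, was at 49.9, 64.9 and 110.4 CPM against 108, 143 and 351 CPM.

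MHC class II genes were lower in the high-Car4 cells. All 6 measured MHC class II genes (Cd74, H2-Aa, H2-Ab1, H2-DMa, H2-DMb1 and Ciita) were lower in high-Car4 cells, against 1 of 6 (H2-DMb1) over all members and 0 of 6 in low-Car4 cells. Cd74, the invariant chain, was at 426, 1014 and 1424 CPM in high-Car4 cells, 2977, 2562 and 4009.7 CPM in low-Car4 cells and 3151, 2746 and 3146 CPM in comparison cells. Of 13 interferon-response genes, 6 were lower in high-Car4 cells (Gbp2, Gbp4, Gbp7, Isg15, Iigp1 and Ifitm3), and 7 were not. Over all members 3 of 14 were lower (Gbp2, Isg15 and Iigp1), and in low-Car4 cells 0 of 14. Of 12 MHC class I genes, 1 was lower in high-Car4 cells (H2-Q6) and 11 were not. Over all genes measured, 5.49% were lower in high-Car4 cells, 2.83% in all members and 0.653% in low-Car4 cells.

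Genes of larger vessels were lower in the members as well, and the comparison gate does not remove cells of such vessels. Of 9 arterial genes 7 were lower, and of 7 venous genes 4, where 2.83% of all genes measured were. Vwf, the clotting factor of larger vessels, was at 32, 84.4 and 200.04 CPM against 361, 593 and 1002 CPM, while the median comparison cell had 0, 0 and 0 UMIs. The arterial connexin gene Gja5 was at 3.04, 8.44 and 6.9 CPM against 23, 34.1 and 115 CPM. Adgrg6, an adhesion receptor gene with the most negative value under the naming rule, was at 4.87, 16.9 and 24.1 CPM against 54.5, 137 and 279 CPM.

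Summed alveolar type 2 and airway genes were lower in the members of the early HER2-negative library than in those of the HER2-positive libraries. The 10 alveolar type 2 genes summed to 104, 1592 and 2095 CPM in members and 112, 1416 and 2384 CPM in comparison cells, where free RNA held 12148, 176734 and 199950 CPM. The 7 airway genes summed to 2.74, 2971 and 259 CPM, and in the early HER2-positive library 97% of the counts of Scgb1a1, a club cell gene, came from 1 cell. The 11 leukocyte genes summed to 10, 67.5 and 124 CPM with 3, 10 and 6 genes at 0, and the leukocyte gene Ptprc had 1, 0 and 3 counts. With 10 of the 11 at 0 in the early HER2-positive library, that sum does not measure leukocyte RNA as a whole. The 8 erythroid and platelet genes summed to 2043, 2054 and 6.9 CPM. The 12 mural genes summed to 7.91, 62.3 and 29.3 CPM and the 11 fibroblast genes to 63.6, 192 and 46.6 CPM, with Pdgfrb and Col1a2 at 0 by the gate. The 10 mammary genes summed to 41.1, 57.1 and 93.1 CPM, with 6, 6 and 2 genes at 0. Erbb2, the mouse gene for HER2, was at 8.52, 13 and 15.5 CPM, and the transgene is of the rat. The lymphatic factor gene Prox1 had 0, 0 and 0 counts. Hopx, on the alveolar type 1 list, was at 1026, 878 and 981 CPM against 233, 292 and 306 CPM in comparison cells.

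Between the early libraries, the epithelial genes above and a few stress and endothelial genes differed in the Car4-positive cells. Of 3527 genes with a mean of at least 50 CPM over the pair, 1.79% were at least 1.5-fold higher in the HER2-positive library and 1.84% lower, against 2.48% and 2.45% of 3510 in the comparison cells. Of 15 aerocyte genes 0 were called either way in the members (median log2 ratio -0.14). In the comparison cells, with no minimum on the level there, 8 of the 15 were at least 1.5-fold higher in the HER2-positive library and 0 lower, with Emp2 at 180.1 and 631 CPM and Ednrb at 8.19 and 20 CPM. By the same count, 101 of the 3527 genes were higher and 89 lower. Car4 is on the aerocyte list but could not be called there, as the gate leaves comparison cells without a Car4 UMI. The highest ratios were those of epithelial genes. Sftpc, which the gate limits, was at 16.1 and 1172 CPM in the HER2-negative and HER2-positive members, with 38.4% of the latter in 1 cell, and at 25.4 and 1071 CPM in comparison cells. Cbr2, an airway gene, was at 0 and 109 CPM, with 42.3% of the latter in 1 cell. The part of free RNA in these levels was not tested.

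Erg, an ETS factor that maintains endothelial identity, was at 66 and 153 CPM, a ratio of 2.32 (1.92 to 2.8), and the ratio in comparison cells was 2.07 (1.84 to 2.33). The most negative ratio under the naming rule was that of Nr4a1, an immediate early gene, at 70.9 and 29.2 CPM. It was followed by Slirp (79.7 and 34.4 CPM), which binds mitochondrial RNA, Myeov2 (112 and 52.6 CPM), the histone gene Hist1h4d (90.7 and 42.8 CPM) and Usmg5 (93.7 and 44.8 CPM), a subunit of ATP synthase. Of the immediate early list, Atf3 was at 164 and 85 CPM and the phosphatase gene Dusp1 at 1525 and 989 CPM. Of its 18 measured genes 4 were lower, 0 higher and 14 neither, with a median log2 ratio of -0.38 in members and -0.31 in comparison cells, against 0.01 over all genes in members. Of all genes in members, 1.84% were lower and 1.79% higher. Cdkn1a had a ratio of 0.663 (0.62 to 0.709) in members and 0.618 (0.571 to 0.669) in comparison cells. Hmcn1, a basement membrane gene, was at 298 and 147 CPM, but its ratio in high-Car4 cells was 1.19 (0.904 to 1.57).

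Within the high-Car4 cells Kdr was at 3011 and 2353 CPM, a ratio of 0.781 (0.744 to 0.821). Ednrb was at 1423 and 1031 CPM, a ratio of 0.724 (0.672 to 0.78), and Gpihbp1 at 399 and 651 CPM, a ratio of 1.63 (1.46 to 1.82). Kdr and Ednrb were thus lower and Gpihbp1 higher in the high-Car4 cells of the HER2-positive library. The median depth of these cells was 4546 and 5500 UMIs, so the same cut on raw Car4 UMIs was not equally strict. Its part in these ratios was not tested.

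A larger share of genes was called between the early and late HER2-positive libraries than between the early libraries. Of 3541 genes, 3.76% were at least 1.5-fold higher in the early members and 4.52% lower, against 2.82% and 3.19% of 3508 in comparison cells. The late members held 579884 UMIs, against 3285543 in the early HER2-negative members, so counting error alone meets a fixed ratio more often there. Its part in these shares was not tested. Sox18, a transcription factor of vessel development, was at 60.3, 57.8 and 398 CPM in members and 67.1, 62.1 and 506 CPM in comparison cells. The late library stood apart in both cell populations, with an early over late ratio of 0.145 (0.112 to 0.186) in members and 0.123 (0.102 to 0.147) in comparison cells. In high-Car4 cells the ratio was 0.15 (0.109 to 0.203), and 6.93% of the late members' counts came from the highest cell.

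Single genes with more RNA in the late members follow, with their ratios in both cell populations. The heat shock gene Hsph1 was at 23.4 and 107 CPM in early and late HER2-positive members, with ratios of 0.219 (0.141 to 0.335) in members and 0.324 (0.233 to 0.448) in comparison cells. Smad6, an inhibitor of BMP signalling, was at 262 and 573 CPM, with 0.457 (0.394 to 0.53) and 0.42 (0.379 to 0.464), and of 13 BMP and TGF-beta genes 2 were lower in the early members and 0 higher. Npr3, the clearance receptor of natriuretic peptides, was at 249.9 and 628 CPM, with 0.398 (0.344 to 0.461) and 0.498 (0.456 to 0.543). All 4 measured venous genes were lower in the early members, with a median log2 ratio of -1.17, and -0.60 in comparison cells. Over all 3541 genes, 4.52% were lower and 3.76% higher. Of the 4, Vwf was unevenly spread over the late members, with a median of 0 UMIs in both high-Car4 and low-Car4 cells. It was at 826 CPM in the 10 late cells with 3 Car4 UMIs and at 0 CPM in those with 4 to 14. Serpina3n, a protease inhibitor gene, was at 23.4 and 96.6 CPM in members, a ratio of 0.242 (0.155 to 0.374), and 12.4 and 10.1 CPM in comparison cells, a ratio of 1.23 (0.604 to 2.72). The difference between these ratios was not tested, and 23.2% of its late counts came from 1 cell.

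Of the 15 aerocyte genes, 3 were higher in the early members and 0 lower, with a median log2 ratio of 0.48 against 0.01 over all genes. Over all 3541 genes, 3.76% were higher and 4.52% lower. In comparison cells, with no minimum on the level there, 8 were higher and 1 lower, where 122 and 96 of the 3541 genes were. Car4, without a count in comparison cells by the gate, could not be called there. Some of the 8 rest on few counts: of 207 late comparison cells, 0 had a UMI of Chst1, 1 of Fibin and 1 of Sirpa. The 3 in the members were Tbx2 at 394 and 216 CPM, a ratio of 1.83 (1.51 to 2.23), Cdkn2b at 166 and 96.6 CPM and Itga3 at 161 and 89.7 CPM. In high-Car4 cells the early over late ratio was 1.62 (1.33 to 2.0) for Tbx2 and 1.38 (1.26 to 1.51) for Kdr. Ier3, an early response gene, was at 878 and 426 CPM in members, and 1063 and 399 CPM in comparison cells. The haemoglobin gene Hbb-bs was at 1464 and 0 CPM, at least 283-fold higher against the limit of 3 counts (5.17 CPM), and 69.7% of its early counts came from 1 cell.

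**Figure D3:**
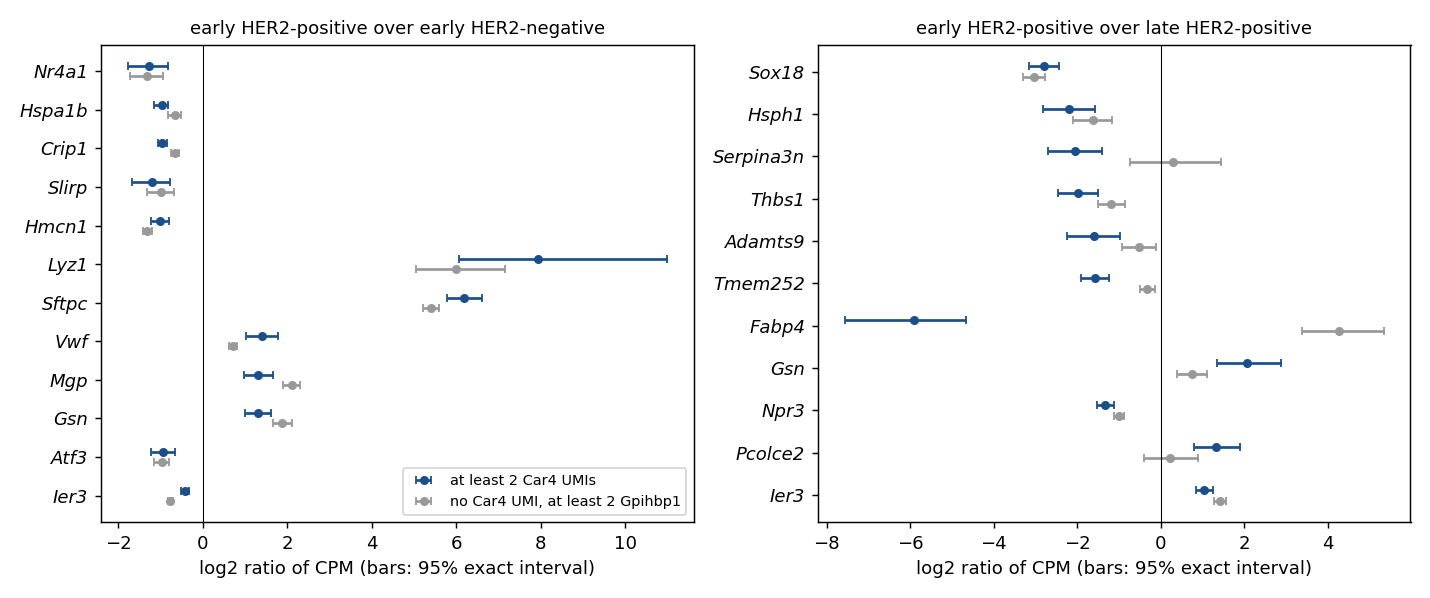
log2 ratio of CPM between libraries, early HER2-positive over early HER2-negative and early over late HER2-positive, with exact intervals, in Car4-positive cells and comparison cells. Sox18 lies below 0 in both cell populations in the early over late panel, with ratios of 0.145 and 0.123.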

How the data were processed

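The deposited matrices hold unnormalised UMI counts per gene and barcode, and per the file headers the writing software was version 3.1.0. The genome build was mm10, per the submitters' processing notes. Per the labels' protocols the kit was 10x Chromium 3′, version 3. For the aligner and the annotation release, nothing is stated in what was used here. The files are not filtered to cells. Total counts were 25610135, 49248126 and 54961019 UMIs.

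Cells were chosen by the gate given at the start. Raw counts were summed per library and cell set and expressed as CPM. A gene was called at a ratio of 1.5 between sums, in all 3 libraries for members over comparison cells (mean of at least 20 CPM over the 6 sums), and in 1 pair of libraries otherwise (mean of at least 50 CPM and at least 10 counts over the pair). CPM carry exact Poisson intervals, shares Clopper-Pearson intervals and ratios exact conditional ones. No test between groups was possible with 1 library each.

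The members, the 37 gene lists and the markers were chosen with earlier results of these data known. Named were list members, genes of the gate and Erbb2, the 15 highest and 15 lowest over the libraries (mean of at least 50 CPM) and the 8 highest and 8 lowest of each pair, without predicted gene models, ribosomal protein, mitochondrial, Xist and Y-linked genes. Of these, 1 gene that the rule names is not reported here. Doublets were scored with Scrublet in scanpy 1.11.5 and removed only as an alternative. Alternatives were other Car4, Gpihbp1 and depth minimums, thinning, another scaling, equal weight per cell, no CPM minimum, and leaving out a gene's highest cell or the late library. The counting steps were tested on simulated data. Python 3.11.15, numpy 2.4.6 and scipy 1.17.1 were used.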

Additional observations from a re-analysis of the deposited data

Results flagged for a closer look

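Some genes lay at least 1.5-fold above the comparison cells in 1 library and at least 1.5-fold below in another, or did so between libraries in the 2 cell populations. These differences between libraries were not tested. Fabp4, a fatty acid binding protein gene, had ratios of members over comparison cells of 1.53, 0.0184 and 21.5. It was at 29.2, 3.25 and 197 CPM in members and 19.1, 176 and 9.15 CPM in comparison cells, and 55.2%, 60% and 97.4% of the members' counts came from 1 cell. Its early over late HER2-positive ratio was 0.0165 in members and 19.2 in comparison cells.

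Vegfc, a lymphatic growth factor gene, had ratios over comparison cells of 0.404, 0.387 and 1.7, and early over late HER2-positive ratios of 0.502 in members and 2.2 in comparison cells. Sema3c, a secreted guidance gene, had ratios of 0.647, 0.771 and 1.55. It was at 498, 715 and 931 CPM in high-Car4 cells and 1871, 1887 and 2619.7 CPM in low-Car4 cells. Mlec, a lectin gene of the endoplasmic reticulum, had ratios of 0.567, 0.727 and 1.64.

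High Car4 also appeared in kept barcodes that the gate removed. At least 6 Car4 UMIs were found in 14, 26 and 11 such barcodes, with median depths of 8757, 12433 and 14249 UMIs. All had at least 4 endothelial gate UMIs. Of them 14, 18 and 6 had a UMI of Pdgfrb or Col1a2, and the other 0, 8 and 5 had at least 5% of their UMIs on Sftpc. At least 2 UMIs of the 6 aerocyte genes outside the gate were found in 14, 26 and 10 of them.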

How the results depend on the processing

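No paired analysis was possible because each group was 1 library. Shares of Car4-positive cells (20.3%, 30.4% and 25.3%) were 15%, 25.3% and 19.8% at 3 or more Car4 UMIs, 17.9%, 24.0% and 17.9% against Car4-free cells whatever their Gpihbp1, 11.1%, 19.1% and 15.2% at 6 or more, and 13.4%, 21.7% and 11.4% after thinning. Removing high doublet scores gave 18.9% in the early HER2-negative library. The 244 genes higher and 179 lower than in comparison cells became 483 and 703 with no CPM minimum, and 370 and 347 at 6 or more Car4 UMIs, which held 241 and 168 of the original genes. Without the late library 300 were lower. Early HER2-positive against HER2-negative, 63 higher and 65 lower became 2419 and 2326 with no minimum, and 138 were higher at 6 or more Car4 UMIs, of which 45 were among the 63. Early against late, 133 and 160 became 3497 and 2085 with no minimum. Higher genes were 57.7% of calls over comparison cells and 40.7% with no minimum, 49.2% between the early libraries and 61.9% at 6 or more Car4 UMIs, and 45.4% early against late and 62.6% with no minimum. The other settings kept these counts within 1.5 times. Direction turned for Hmcn1 between the early libraries at 6 or more Car4 UMIs (log2 ratio 0.26). Early against late it turned for Cbr2 with doublet scores removed (-0.16) and at 6 or more (-0.51), and for Scgb1a1 (-1.57 and -1.73, and -0.85 without its highest cell). Of 37 named genes, 9 had a median ratio of members over comparison cells that moved by over 1.5 times against Car4-free cells whatever their Gpihbp1, among them Alpl, Sirpa and Ednrb (log2 ratios of 5.11, 5.92 and 5.13 to 3.55, 4.33 and 4.34) and Vwf (-2.81 to -3.77), and 6 did without the late library. Of 66 named ratios in all, 26 did so at 6 or more Car4 UMIs, 8 at 3 or more, 8 with doublet scores removed, 8 with equal weight per cell and 0 with a higher depth minimum, median-ratio scaling or no CPM minimum, and 9 of 65 did without each gene's highest cell. The settings of 6 or more Car4 UMIs, without a gene's highest cell and without the late library were chosen after seeing the data. The cause of these changes was not tested. Ratios over 0 counts (Cbr2, Hbb-bs and Hbb-bt) gave no value under any setting where the count stayed at 0. Depth limits the 70 late members most.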
